A study of Mus musculus with 6 samples.

Results

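Imprinted genes are genes of which mainly the maternal or mainly the paternal copy is active. A set of 37 of them, named from general knowledge of mouse imprinting, was followed in the adult hippocampus after ethanol in the first week of life. Of the 37, 31 were measured by a probe set that the platform annotation pairs with that gene alone, out of 19938 genes measured in this way. Snrpn, Ube3a, Mirg and Gnas lay only on probe sets that the annotation pairs with several genes and were not named, and the annotation used here lists no probe set for H19 or Kcnq1ot1. The question was whether neonatal ethanol left a lasting change in the expression of these genes. All animals were male C57Bl/6J mice, dissected at postnatal day 70. Pups of the ethanol group received 2.5 g/kg ethanol in saline under the skin, with 2 injections a day on postnatal days 4 and 7, and pups of the saline group received saline alone on the same days. Littermates were divided between the groups. RNA of 3 males from different litters was pooled for each Affymetrix Mouse Gene ST array, with 3 arrays and 9 mice in each group, so that the error terms below are those of pools and not of single mice. Levels are the log2 values that the authors obtained by RMA, and a change is the ethanol mean minus the saline mean on that log2 scale.

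Imprints are marks of DNA methylation that are laid down in the egg or the sperm and kept in the body of the offspring. They sit in control regions, each of which can set the active copy of several neighbouring genes, so that imprinted genes lie in domains. The KRAB zinc finger protein ZFP57 binds the methylated hexamer TGCCGC and protects the mark after fertilization. Many imprinted genes act on growth before and after birth, with paternally expressed genes often promoting it and maternally expressed genes often restraining it, and many are active in neurons. The array reads RNA from both copies together, so the values below are total levels and do not show which copy was active. In whole hippocampus, moreover, fewer cells of a type and less RNA per cell cannot be told apart.

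Promoter sequences are shown for 4 of the members with TGCCGC upstream of the start, for Peg3 with Usp29, and for the member with the lowest p. They were taken from RefSeq on build GRCm38.p6, in windows of 250 bases before to 50 bases after each start. The table held 30 of the 37 genes, with 47 windows in all. TGCCGC, searched on both strands, was present in at least 1 window of 10 of these 30 genes (33.3%), namely Nnat, Mest, Copg2, Nap1l5, Zim1, Snrpn, Igf2, Plagl1, Grb10 and Meg3. It was present in 13.1% of all 27025 genes of the table (32851 windows). Of the 15614 of them that were measured on the array (19177 windows), 17.2% had it. The imprinted genes had more windows per gene than either set, which raises their share of genes with a match in any window. A match of these letters is a description and not a binding site. The next 4 stretches lie upstream of the start of Plagl1, Nap1l5, Mest and Meg3, and the capitals mark the hexamer, written as GCGGCA where it lies on the opposite strand.
Plagl1 (chr10:13090725-13090764, plus strand): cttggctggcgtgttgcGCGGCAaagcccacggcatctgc
Nap1l5 (chr6:58907128-58907167, minus strand): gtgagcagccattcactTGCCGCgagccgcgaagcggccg
Mest (chr6:30737966-30738005, plus strand): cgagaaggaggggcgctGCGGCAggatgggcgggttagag
Meg3 (chr12:109540789-109540828, plus strand): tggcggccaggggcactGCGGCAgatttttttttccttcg
Peg3 and Usp29 start back to back, and the 163 bases between their starts are shown because they lie within the control region of that domain. The capitals mark the 5 CpG dinucleotides, the sites that carry the methylation of imprints. These bases hold no TGCCGC.
Peg3 to Usp29 (chr7:6730420-6730582, minus strand): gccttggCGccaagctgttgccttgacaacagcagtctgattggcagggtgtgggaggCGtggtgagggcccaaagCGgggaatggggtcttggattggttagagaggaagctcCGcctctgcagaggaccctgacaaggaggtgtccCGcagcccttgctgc
Magel2 is shown as the only member with an unadjusted p under 0.05, with the 250 bases before its start and the 7 CpG dinucleotides in capitals.
Magel2 (chr7:62376729-62376978, plus strand): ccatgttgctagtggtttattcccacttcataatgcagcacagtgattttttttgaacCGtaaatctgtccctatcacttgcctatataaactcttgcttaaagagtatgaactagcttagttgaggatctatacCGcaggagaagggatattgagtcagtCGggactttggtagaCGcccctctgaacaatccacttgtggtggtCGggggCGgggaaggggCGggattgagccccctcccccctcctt
The highest CpG content of a gene's windows, as observed over the number its base composition predicts, had a median of 0.61 over the 30 imprinted genes. Over all genes of the table the median was 0.41, and over those measured on the array 0.66. DNA methylation itself was not analysed here.

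No imprinted gene differed between ethanol and saline after adjustment, and the changes were small in both directions. In limma, with Benjamini-Hochberg adjustment over 23410 probe sets, 0 of the 31 genes had an adjusted p under 0.05, as did 0% of all genes (lowest adjusted p = 0.931). The same comparison without moderation of the variances also left 0. At an unadjusted p under 0.05, 1 of 31 passed, where 5.22% of all genes did. This was Magel2, which was higher after ethanol, as 2.8% of all genes were at this threshold, and 0 of 31 were lower. In 0 of the 31 genes did the 3 ethanol pools lie wholly above or below the 3 saline pools, where 10.4% of all genes showed such a separation. The change was above zero in 18 genes and below zero in 13, with a median of 0.03, and it ran from -0.08 in Ddc to 0.29 in Igf2. The median over all genes was 0.00. Of 18 measured genes classed as paternally expressed, 11 had a change above zero and 7 below, with a median of 0.04. The 9 genes classed as maternally expressed had a median of 0.03, with 6 above zero and 3 below. These classes do not allow for the brain, where Igf2 (classed as paternal) and Igf2r (classed as maternal) can be active from both copies. Copg2, Grb10, Ddc and Inpp5f, whose active copy depends on tissue or transcript, had a median of -0.05.

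**Figure D1:**
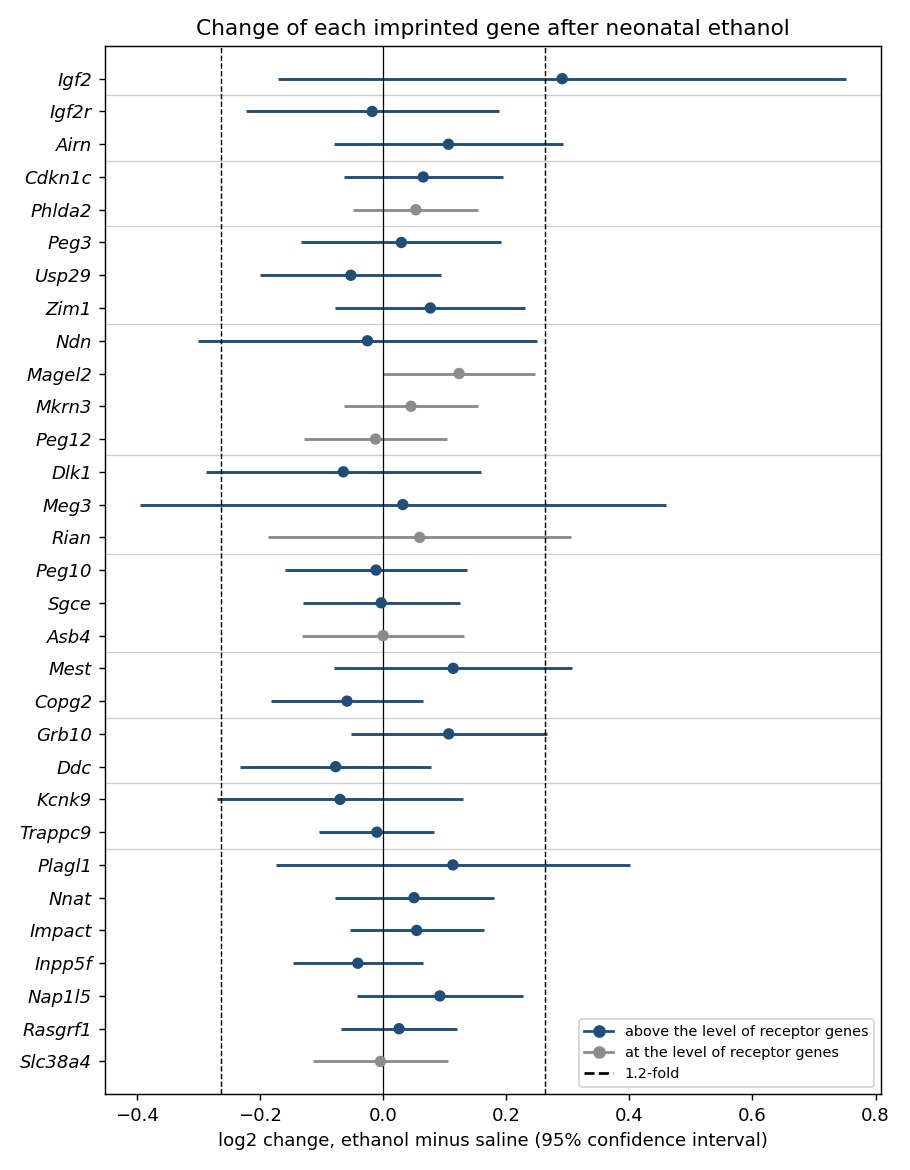
Change of each of the 31 measured imprinted genes on the log2 scale, ethanol minus saline (x axis), with points for the estimate and lines for the 95% confidence interval in limma, ordered by chromosomal domain with the domains parted by grey lines. Dashed lines mark 1.2-fold in either direction. Grey symbols are genes with a mean below the 95th percentile of receptor genes, and the interval of Igf2 is the widest.

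A change of 1.2-fold was outside the 95% confidence interval in both directions for 21 of the 31 genes (67.7%), compared with 92% of all genes. The intervals of the other 10, Igf2, Airn, Ndn, Dlk1, Meg3, Rian, Mest, Grb10, Kcnk9 and Plagl1, reached past 1.2-fold in at least 1 direction, so that a change of this size was not excluded in them. As a guide to which genes were well measured, the mean levels of 1194 olfactory and vomeronasal receptor genes, which are silent in most of the brain, were used. The 95th percentile of these means was 5.38. Of the 31 imprinted genes 24 lay above it, and Phlda2, Magel2, Mkrn3, Peg12, Rian, Asb4 and Slc38a4 lay below it. In these 7, signal and background were close, so that a narrow interval there does not exclude a change in expression. Of the 24 genes above that level, 15 (62.5%) had an interval within 1.2-fold, compared with 91% of all genes above it.

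Igf2, the fetal growth factor of the insulin family, had the largest change of the 31 genes. In the adult brain it is known to be made mainly in the choroid plexus and the meninges, where both of its copies are active. Its level was 9.51, 9.54 and 9.69 in saline pools 1, 2 and 3 and 10.22, 9.31 and 10.08 in ethanol pools 1, 2 and 3. Ethanol pools 1 and 3 were thus above all saline pools and ethanol pool 2 was below them all. The change was 0.29 ± 0.20 (SE, n = 3 pools per group, adjusted p = 0.932 in limma), with a 95% confidence interval of 0.889- to 1.68-fold. Without ethanol pool 2 the change was 0.57, with an unadjusted p = 5.7e-05 and an adjusted p = 0.257 in limma. Without ethanol pool 1 it was 0.12, and without ethanol pool 3 it was 0.19, and neither passed the unadjusted threshold. Relative to its saline mean, Igf2 was at 0.64, -0.27 and 0.50 in ethanol pools 1, 2 and 3. On the same scale, the mean of 16 measured choroid plexus markers was at 1.06, -0.29 and 0.63 in these pools and at -0.17, -0.02 and 0.19 in the saline pools. All 16 markers had a change above zero, with a median of 0.47, and all 16 lay above the level of receptor genes. At an unadjusted p under 0.05, 3 of them were higher, beside 2.8% of all genes. They were the co-receptor Kl (0.52 ± 0.22), the metalloreductase Steap1 (0.50 ± 0.20) and the potassium channel subunit Kcne2 (0.45 ± 0.19). Each of these 3 passed in 2 of the 6 fits with a pool left out (saline pool 3 or ethanol pool 2), and ran as low as 0.30, 0.30 and 0.25 in the others. Igf2 was the only 1 of the 31 imprinted genes whose 6 pools had the same order as the choroid plexus mean, as did 69 of all 19938 genes. The mean of 18 markers of meninges and fibroblasts lay at 0.19, -0.08 and 0.12 in the ethanol pools and between -0.06 and 0.11 in the saline pools. Its 18 genes had a median change of 0.07 and 4 lay below the level of receptor genes. The part of these cell types in the values of Igf2 was not tested.

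**Figure D2:**
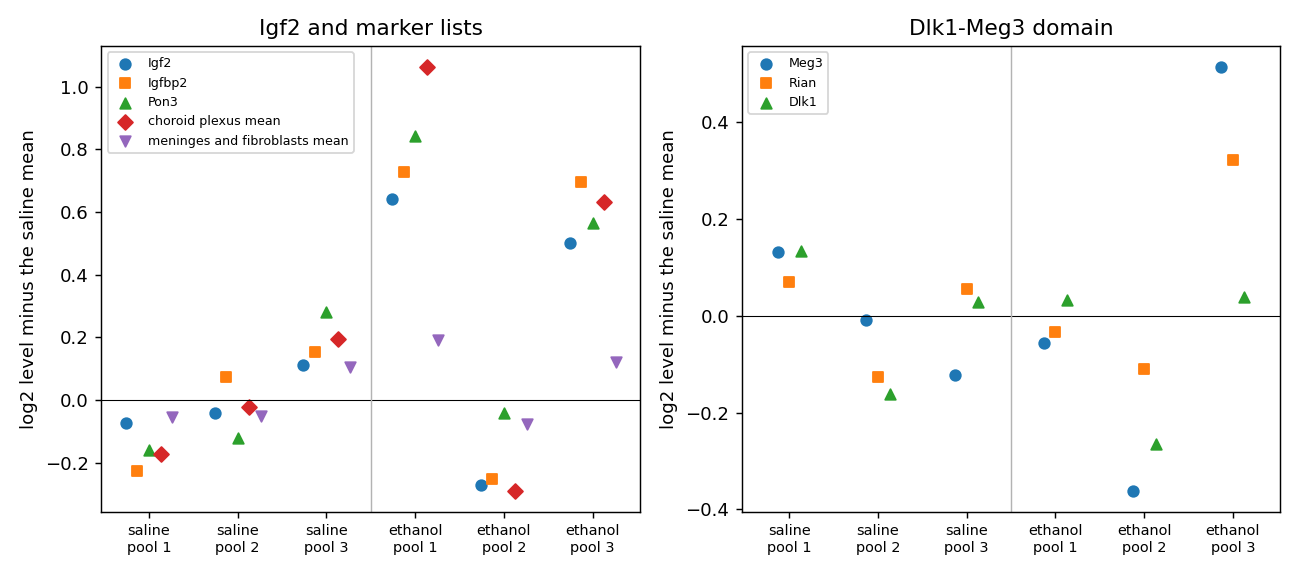
Levels in each pool (x axis) with the saline mean subtracted (y axis, log2), for Igf2, Igfbp2, Pon3 and the means of 2 marker lists (left) and for Meg3, Rian and Dlk1 (right), with 1 point per gene or list and pool. On the left ethanol pools 1 and 3 are high and ethanol pool 2 is among or below the saline pools, and on the right Meg3 lies at 0.51 and Rian at 0.32 in ethanol pool 3.

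Genes that restrain or tune growth had changes of at most 0.11. Igf2r, the receptor that takes IGF2 up for breakdown, was measured at 8.12, 8.05 and 8.29 in saline pools 1, 2 and 3 and at 8.33, 8.07 and 8.02 in the ethanol pools. Ethanol pool 1 was the highest of the 6 and ethanol pool 3 the lowest, and the change was -0.02 ± 0.09. Airn, a paternally expressed noncoding RNA that runs antisense across the start of Igf2r and silences it in cis outside neurons, was at 6.13, 5.81 and 5.90 after saline. After ethanol it was at 6.05, 5.97 and 6.14, with a change of 0.11 ± 0.08. Without saline pool 1, the highest of its group, the change of Airn was 0.20 and passed the unadjusted threshold, but it was 0.038 with saline pool 2 left out and 0.065 with ethanol pool 3 left out.

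Cdkn1c encodes an inhibitor of cyclin-dependent kinases that holds cells out of the cycle. It was at 5.48, 5.41 and 5.50 after saline and at 5.58, 5.41 and 5.58 after ethanol, a change of 0.07 ± 0.06. Ethanol pools 1 and 3 were above the saline pools and ethanol pool 2 among them, and without ethanol pool 2 the change was 0.12 and passed the unadjusted threshold. It was 0.037 with ethanol pool 1 or ethanol pool 3 left out and 0.038 with saline pool 2 left out. Phlda2, which limits growth of the placenta, was at the level of receptor genes, with a change of 0.05 ± 0.04. Grb10, an adaptor that dampens signals of the insulin and IGF1 receptors and that neurons express from the paternal copy, was at 7.88, 7.64 and 7.81 after saline and at 7.96, 7.79 and 7.91 after ethanol. The groups overlapped, at a change of 0.11 ± 0.07. With a block for the pool number, which is not known to pair the pools, the unadjusted p of Grb10 was 0.0479 in limma. With saline pool 2 left out, the change of Grb10 was 0.038. Its neighbour Ddc, the enzyme that makes dopamine and serotonin from their amino acid precursors, was at 5.90, 6.18 and 6.04 after saline and at 5.98, 5.93 and 5.98 after ethanol. The 3 ethanol pools lay within the range of the saline pools, at a change of -0.08 ± 0.07, and without saline pool 1 the change was -0.15 and passed the unadjusted threshold. With saline pool 2 left out, the change of Ddc was -0.0053.

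Plagl1 encodes a zinc finger transcription factor of a network of imprinted growth genes. Its level was 8.28, 8.002 and 8.42 in the saline pools and 8.59, 8.17 and 8.29 in the ethanol pools. Ethanol pool 1 was the highest and saline pool 2 the lowest, and the change was 0.11 ± 0.13, with an interval of 0.887- to 1.32-fold. Leaving out saline pool 2 or ethanol pool 1 turned the sign, with a change of -0.0059 in the latter case. Mest, a paternally expressed enzyme of the hydrolase fold family known for fetal growth and maternal care, was at 9.24, 9.08 and 9.16 after saline and at 9.47, 9.13 and 9.22 after ethanol. Ethanol pool 1 stood above the other 5 pools, at a change of 0.11 ± 0.08. Copg2, a coat protein of vesicles that overlaps Mest on the opposite strand, was at 10.67, 10.80 and 10.70 after saline and at 10.73, 10.69 and 10.58 after ethanol, a change of -0.06 ± 0.05.

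In the Prader-Willi domain, whose paternal genes are lost in the human syndrome of that name, 4 genes were measured. Magel2, a MAGE family protein that acts in the recycling of membrane proteins, was at 4.97, 4.79 and 4.81 after saline. After ethanol it was at 4.97, 5.01 and 4.97, so that saline pool 1 lay within the ethanol range and the other 2 saline pools below it. The change was 0.12 ± 0.05, or 1.09-fold (unadjusted p = 0.0494 and adjusted p = 0.931 in limma). This unadjusted call was lost in 11 alternatives, among them quantile normalization (unadjusted p = 0.0545 in limma), median centring (0.0755) and the fits without saline pool 2 (0.162) or saline pool 3 (0.151). All 6 values were below the level of receptor genes. Ndn, the related MAGE protein necdin of postmitotic neurons, was at 12.12, 12.57 and 12.22 after saline and at 12.19, 12.47 and 12.17 after ethanol. In each group pool 2 was the highest, and the change was -0.03 ± 0.12. Mkrn3, a ubiquitin ligase known as a brake on puberty, and Peg12, a relative of the FRAT proteins of Wnt signalling, had changes of 0.05 ± 0.05 and -0.01 ± 0.05 at the level of receptor genes.

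**Figure D3:**
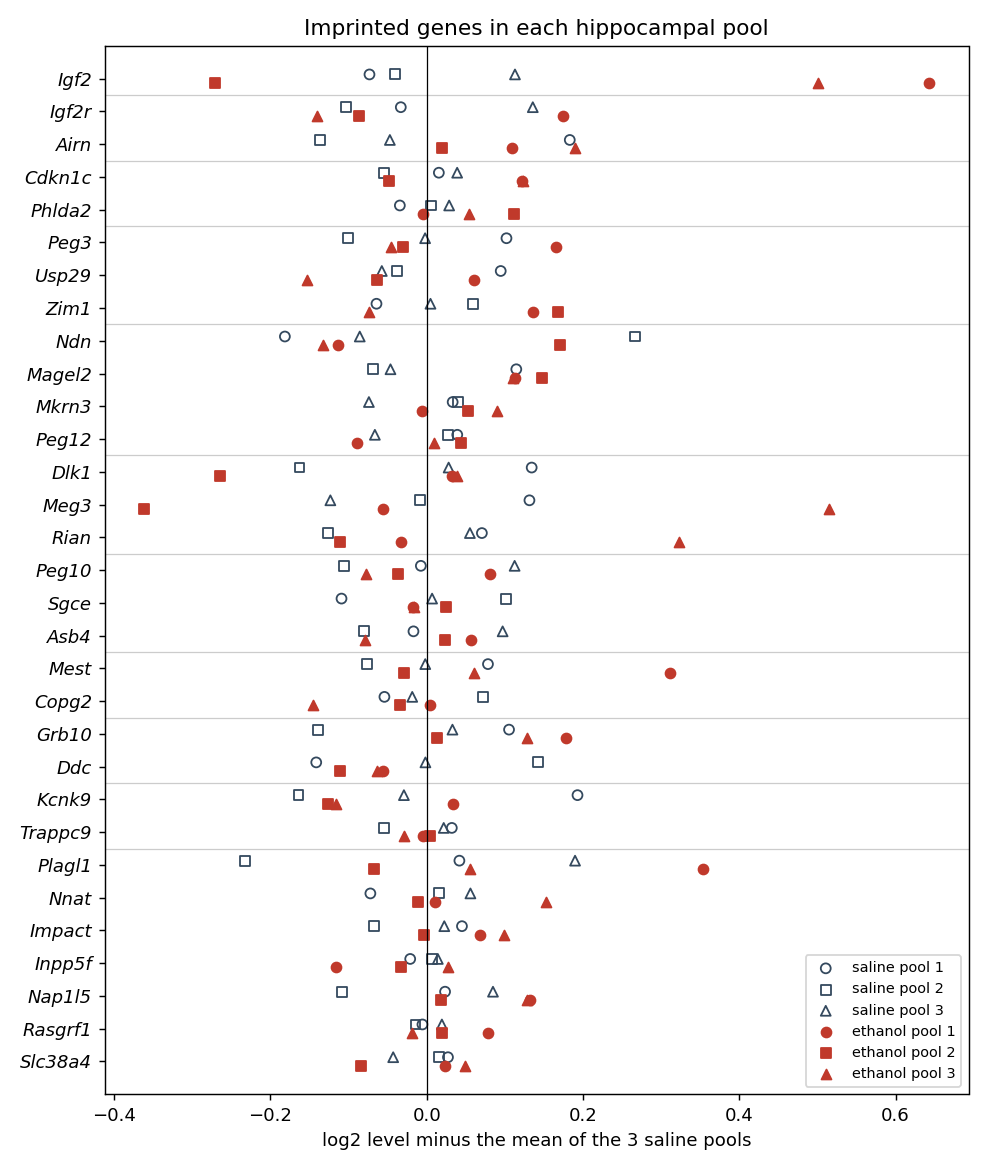
Level of each of the 31 measured imprinted genes in each pool with its saline mean subtracted (x axis, log2), with 1 symbol per pool, open for saline and filled for ethanol, and genes ordered by domain. The ethanol and saline symbols overlap in all 31 genes, and the points farthest from zero are those of Igf2 in ethanol pool 1 at 0.64 and Meg3 in ethanol pool 3 at 0.51.

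The Dlk1-Meg3 domain had wide differences between pools and small differences between groups. Meg3, a maternally expressed long noncoding RNA of neurons, was at 9.80, 9.66 and 9.54 after saline and at 9.61, 9.31 and 10.18 after ethanol. Ethanol pool 3 was the highest of the 6 and ethanol pool 2 the lowest, and the change was 0.03 ± 0.19, with an interval of 0.761- to 1.37-fold. Rian, a second maternal noncoding RNA of the domain and host of small nucleolar RNAs, was measured at the level of receptor genes. It was at 5.03, 4.83 and 5.01 after saline and at 4.92, 4.85 and 5.28 after ethanol, and ethanol pool 3 was again the highest. Without ethanol pool 3, Meg3 had a change of -0.21 and Rian of -0.07, without ethanol pool 2 they had changes of 0.23 and 0.15, and with all pools the change of Rian was 0.06 ± 0.11. Dlk1, the paternally expressed membrane protein related to Notch ligands, was at 6.94, 6.64 and 6.83 after saline and at 6.84, 6.54 and 6.84 after ethanol. Pool 2 was the lowest of both groups, and the change was -0.06 ± 0.10.

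Among genes of the Peg3 domain, Peg3, a zinc finger transcription factor tied to maternal behaviour, was at 10.82, 10.62 and 10.72 after saline and at 10.89, 10.69 and 10.68 after ethanol. The groups overlapped and the change was 0.03 ± 0.07. Usp29, a member of the ubiquitin protease family that shares the promoter region shown above, had a change of -0.05 ± 0.06. Zim1, a maternally expressed zinc finger gene, was at 5.58, 5.70 and 5.65 after saline and at 5.78, 5.81 and 5.57 after ethanol. Ethanol pools 1 and 2 were above the saline pools and ethanol pool 3 was the lowest of all, and without ethanol pool 3 the change of 0.08 ± 0.07 became 0.15 and passed the unadjusted threshold. It was 0.032 with ethanol pool 2, 0.045 with saline pool 1 and 0.047 with ethanol pool 1 left out. The 3 listed members of the Peg10 domain had estimates near zero. The changes were -0.01 ± 0.06 in Peg10, a gene derived from a retrotransposon, and -0.00 ± 0.06 in Sgce, the sarcoglycan of myoclonus dystonia. Asb4, a ubiquitin ligase adaptor at the level of receptor genes, had a change of 0.00 ± 0.06. Pon3 of the same domain, which is not among these members, had a larger change, given below.

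The remaining 8 imprinted genes had changes of at most 0.09 in size. Nnat, a small membrane protein of the endoplasmic reticulum, was at 11.68, 11.76 and 11.80 after saline and at 11.76, 11.74 and 11.90 after ethanol, a change of 0.05 ± 0.06. Impact, which restrains the translational stress kinase GCN2, was at 11.18, 11.06 and 11.15 after saline and at 11.20, 11.13 and 11.23 after ethanol, a change of 0.05 ± 0.05. In both genes the groups overlapped. Rasgrf1, the calcium-dependent activator of Ras that acts in hippocampal plasticity, was at 10.92, 10.91 and 10.95 after saline and at 11.01, 10.95 and 10.91 after ethanol. Its change of 0.03 ± 0.04 had an interval of 0.954- to 1.09-fold, so that a change of 1.2-fold lay outside it. Nap1l5, a member of the nucleosome assembly protein family, was at 10.77, 10.64 and 10.83 after saline and at 10.88, 10.77 and 10.88 after ethanol. Ethanol pools 1 and 3 were above all saline pools and ethanol pool 2 was within them, at a change of 0.09 ± 0.06. Kcnk9, a potassium leak channel, had a change of -0.07 ± 0.09 and its neighbour Trappc9, a vesicle tethering subunit, of -0.01 ± 0.04. The phosphoinositide phosphatase Inpp5f had a change of -0.04 ± 0.05, and the amino acid transporter Slc38a4, at the level of receptor genes, of -0.00 ± 0.05.

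As a list, these 31 imprinted genes varied more between pools of the same treatment than most genes of like level. For each gene the SD between pools, pooled over both groups, was ranked among the 1001 genes nearest in mean level, 500 on each side and the gene itself. The median rank of the 31 genes was the 83.2nd percentile. Of the 31, 12 (38.7%) were above the 90th percentile, compared with 10% of all genes. They were Igf2, Igf2r, Peg3, Ndn, Dlk1, Meg3, Rian, Mest, Kcnk9, Plagl1, Nnat and Nap1l5. The count was 10 of 31 with the saline pools alone and 10 of 31 with the ethanol pools alone. Igf2, Peg3, Ndn, Dlk1, Meg3 and Plagl1 were above the 90th percentile in both groups, 6 of 31, where 2.26% of all genes were. The median SD was 0.096 over the 31 genes and 0.060 over all genes. Over 40 further imprinted genes, described below, it was 0.057. These were not ranked among genes of like level, so whether the wide spread is general to imprinted genes was not tested. Among the 31 genes the largest SDs were 0.355 in Igf2, 0.327 in Meg3, 0.215 in Plagl1 and 0.206 in Ndn. The smallest were 0.036 in Trappc9 and 0.037 in Rasgrf1. The highest pool differed between these genes. It was ethanol pool 1 in Igf2, Mest and Plagl1, ethanol pool 3 in Meg3 and Rian, and saline pool 2 in Ndn. Pool 2 was the lowest of both groups in Dlk1, Rian, Mest, Kcnk9, Plagl1 and Nap1l5. It was the lowest in saline alone in Igf2r and Peg3, in ethanol alone in Igf2, Meg3 and Nnat, and in neither in Ndn. Relative to the saline means, the 31 genes averaged 0.02, -0.04 and 0.02 in saline pools 1, 2 and 3. In the ethanol pools they averaged 0.08, -0.03 and 0.05. Whether these spreads had a common source was not tested. The ranking by SD is a description with no test.

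**Figure D4:**
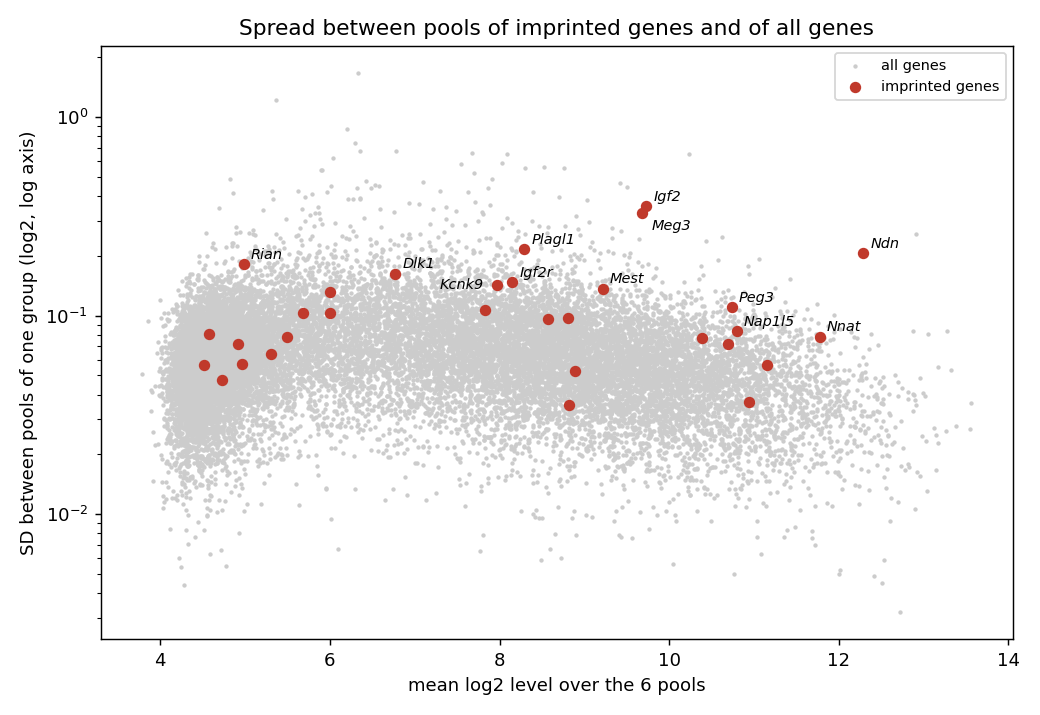
SD between the pools of 1 group, pooled over saline and ethanol (y axis, log2 units on a log axis), against the mean log2 level over the 6 pools (x axis), for all 19938 genes in grey and the 31 imprinted genes in red, with names for the 12 above the 90th percentile of genes of like level. Igf2 at 0.355 and Meg3 at 0.327 stand at the top of their range of levels.

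Other imprinted genes and the factors that keep imprints were examined in the same fit. Of 50 further imprinted genes 40 were measured, of which 2 were higher and 3 lower at an unadjusted p under 0.05, with a median change of -0.00. These 5 are 12.5% of the list, beside 5.22% of all genes at this threshold. The lipid transfer protein Osbpl5 (0.13 ± 0.06) and the tetraspanin Tspan32 (0.09 ± 0.04) were higher. The postsynaptic protein Begain of the Dlk1 domain (-0.11 ± 0.04), the catecholamine enzyme Th (-0.10 ± 0.04) and the ubiquitin ligase Herc3 (-0.10 ± 0.04), within whose introns Nap1l5 lies, were lower. Pon3, a lactone hydrolase of the Peg10 domain, did not pass, with a change of 0.45 ± 0.21. Relative to its saline mean, ethanol pools 1, 2 and 3 were at 0.84, -0.04 and 0.56. In this list the pools of 7 of the 40 genes did not overlap, beside 10.4% of all genes. Among 24 factors of imprint establishment and maintenance, 23 were measured, 2 were lower and 0 higher (8.7%, beside the same 5.22%), with a median of -0.03. Dnmt3a, the de novo DNA methyltransferase, was at 7.35, 7.30 and 7.40 after saline and at 7.29, 7.21 and 7.08 after ethanol, a change of -0.15 ± 0.06. Ehmt1, a histone methyltransferase of silent chromatin, was at 7.37, 7.47 and 7.38 after saline and at 7.32, 7.28 and 7.26 after ethanol, a change of -0.12 ± 0.04. In both genes all ethanol pools were below all saline pools. The pools did not overlap in 4 of the 23 factors, beside 10.4% of all genes. The adjusted p in limma of each gene named here was 0.931. None of these unadjusted calls held with every pool left out in turn. Dnmt3a ran from -0.20 to -0.099 and did not pass without saline pool 1, saline pool 3 or ethanol pool 3, and Ehmt1 ran from -0.14 to -0.088 and did not pass without saline pool 2, ethanol pool 2 or ethanol pool 3. Begain passed in 3 of these 6 fits, Osbpl5 in 2, and Tspan32, Th and Herc3 in 1 each. Pon3 passed in 2 of them and ran from 0.26 to 0.70.

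Of 21 genes of insulin-like growth factor signalling 20 were measured and 0 passed the unadjusted threshold, with a median change of -0.01. The pair with the strongest signal, the protease Htra1 and the binding protein Igfbp5, had changes of 0.02 ± 0.04 and -0.09 ± 0.05, and Igfbp5, at -0.12, passed without saline pool 2. Igfbp2, a binding protein of IGF2 that is also made in the choroid plexus and meninges, was at 7.20, 7.50 and 7.58 after saline and at 8.16, 7.18 and 8.12 after ethanol. As in Igf2, ethanol pools 1 and 3 were above all saline pools and ethanol pool 2 was below them, and the change was 0.39 ± 0.24. Without ethanol pool 2 the change of Igfbp2 was 0.71 and passed the unadjusted threshold, and in the other 5 such fits it did not pass and was as low as 0.22.

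The tissue was checked against markers of the hippocampus and its neighbours. All 19 measured markers of hippocampal neurons were above the level of receptor genes and 0 passed the unadjusted threshold, with a median change of 0.00. Of 15 measured markers of the hypothalamus, where several of the imprinted genes are strongly expressed, 10 were below that level and 0 passed (median 0.01). Of 18 markers of the thalamus 10 were higher at the unadjusted threshold, beside 2.8% of all genes, with a median of 0.28. The list holds Tcf7l2 and Synpo2, which the paper had already reported as higher after ethanol on these arrays. It was chosen with those results known, so this count is not an independent check of the tissue. Over the list the ethanol pools exceeded the saline mean by 0.64 (pool 1), 0.23 (pool 2) and 0.10 (pool 3) on average. Of 13 measured oligodendrocyte markers 4 were lower at this threshold, with a median of -0.11, where 481 of all 19938 genes were lower. After adjustment 0 markers of the thalamus and 0 of oligodendrocytes passed. In the lists of GABAergic interneurons (12 genes), astrocytes (10), microglia (9), endothelial and mural cells (11) and meninges and fibroblasts (18), 0 genes passed, with medians of 0.00, -0.03, -0.07, -0.01 and 0.07. The part of these differences in the values of the imprinted genes was not tested.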

How the data were processed

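Total RNA of whole hippocampus was hybridized to Affymetrix Mouse Gene 1.0 ST arrays, 1 pool of 3 mice per array and 3 arrays per group. The authors summarized the probes with RMA and deposited log2 values, 1 per probe set and array; for the RMA software, its version and the build of the annotation, nothing is given in the sources used here. These values were used as deposited. Array medians ran from 5.84 to 5.89, and the lowest correlation between arrays was 0.998. Groups were taken from the submitters' labels.

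Of 35556 probe sets, 21789 had 1 gene symbol in the platform annotation, 1621 several and 12146 none. The 23410 with a symbol entered a two-sided comparison in limma (version 3.58.1, R 4.3.3; lmFit, then eBayes) without covariates or a filter on dim probe sets, and p-values were adjusted by Benjamini-Hochberg over all of them. The methods name an ANOVA. The brightest probe set stood for each gene. Each of the 31 imprinted genes has 1 such probe set. The number of arrays limits the precision, and exact permutation of 3 pools against 3 has a smallest p of 0.1, so it was left out. Levels of different probe sets depend on their probes, so their order was used to choose which genes to name and to match genes of like level, and says nothing of relative abundance. The RefSeq tables served for names and promoter sequences alone. The fit was tested on simulated data.

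The imprinted genes, the further gene lists and the rule for named genes were chosen with earlier results of these data known. Values in every pool are given for genes past the unadjusted threshold, the 8 others with the largest change, the 6 with the highest signal after saline, and Igf2, Igf2r, Dlk1, Meg3, Peg3 and Cdkn1c. Rian, Pon3 and Igfbp2 were added after their values were seen. In the gene lists, up to 4 genes past the unadjusted threshold or, where none passed, the pair with the strongest signal could be named. Cell type lists without a named gene are given by counts. Alternatives were the methods' t-test, a block for the replicate number, centring on the median, quantile normalization, leaving out probe sets below the median level or below the level of receptor genes, testing all rows or those with 1 symbol alone, averaging the probe sets of a gene, array weights, an intensity trend, and leaving out each array in turn. Methylation, histone and miRNA arrays were not analysed here.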

Additional observations from a re-analysis of the deposited data

How the results depend on the processing

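After adjustment 0 probe sets and 0 imprinted genes passed under all 17 alternatives, in limma and in the methods' t-test; at an unadjusted p under 0.05, 1202 of 23410 probe sets passed in limma and 1161 in the methods' t-test. The median change of the imprinted genes stayed between 0.01 and 0.05. The number past the unadjusted threshold was 0 in place of 1 with the methods' t-test, median centring, quantile normalization, all rows of the table, an intensity trend, and the filters at the median level (19 genes measured) and at the level of receptor genes (24 genes), which left Magel2 out. It ran from 0 to 3 with 1 array left out. Magel2 passed with probe sets of 1 symbol alone, array weights, the mean of probe sets and without saline pool 1 (0.18), and in no other alternative, where it ran from 0.09 to 0.13. Same-numbered pools did not deviate together (correlations of -0.0488, -0.022 and 0.0588). Whether they shared litters cannot be told from this, and the labels do not give it. The main fit had no block for the number. With the number as a block 1 gene passed in limma, Grb10 (unadjusted p = 0.0479) in place of Magel2 (0.0607). The median was then 0.03, with 1153 probe sets at the unadjusted threshold and 0 after adjustment. Of 508 gene values under alternatives 448 kept sign and side of the threshold, 43 turned sign, 11 lost the threshold (all Magel2) and 6 gained it. The sign of Asb4 turned with median centring (-0.015), quantile normalization (-0.015) and array weights (-0.031), and with array weights also those of Ndn (0.013), Peg12 (0.014) and Slc38a4 (0.0084). With 1 array left out the sign turned in 15 genes, which ran from -0.040 to 0.049 in Asb4, -0.15 to 0.036 in Dlk1, -0.11 to 0.051 in Igf2r, -0.15 to 0.027 in Kcnk9, -0.21 to 0.23 in Meg3, -0.12 to 0.11 in Ndn, -0.00037 to 0.082 in Nnat, -0.064 to 0.045 in Peg10, -0.045 to 0.027 in Peg12, -0.038 to 0.081 in Peg3, -0.0059 to 0.21 in Plagl1, -0.072 to 0.15 in Rian, -0.057 to 0.048 in Sgce, -0.030 to 0.036 in Slc38a4 and -0.037 to 0.0064 in Trappc9. The causes were not tested. Signal close to background limits the 7 genes below the level of receptor genes.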
